A study of Mus musculus with 4 samples.

Results

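The response of wildtype mouse macrophages to bacterial lipopolysaccharide (LPS) was read from the Cy3 channel of 4 Agilent 2-colour arrays. That channel held wildtype RNA on every array, while the Cy5 channel held RNA of Cdk5r1 knockout cells. The 4 wildtype samples, 2 basal and 2 treated with LPS, are 4 of the 8 RNA samples of the series, which asks how loss of Cdk5r1, the gene of the CDK5 activator p35, changes macrophage gene expression. The cells were derived over 7 days from bone marrow of male mice aged 6 weeks, in medium with 25 ng/ml of GM-CSF, a myeloid growth factor. LPS cells then received E. coli LPS at 100 ng/ml for 6 h, and basal cells did not. Both genotypes carry the strain label B6.129S4-Cdk5r1tm1Lht/J, with the wildtype channel marked as wildtype. The labels call the 2 arrays of a condition biological replicates and do not say whether animals were pooled, so the p-values measure the spread between these samples.

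LPS is bound by CD14 and by MD-2 (Ly96) and is sensed through the receptor TLR4. TLR4 signals through the adaptor MyD88 to NF-kappaB and MAP kinases, and from endosomes through TRIF to IRF3 and interferon beta, which acts back on the cell through its own receptor. In macrophages the first wave of cytokines is followed by feedback inhibitors, RNA decay factors, interferon-stimulated genes and a change of metabolism. GM-CSF cultures of bone marrow are known to hold macrophages together with dendritic-like cells and granulocyte precursors.

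All values below are log2 levels of the normalised Cy3 intensity of 1 probe per gene. They compare arrays and never probes with each other. A gene is said to rise or fall where limma's adjusted p (Benjamini-Hochberg over all genes) was under 0.05 and the change was at least 2-fold. Of 23212 genes or unmatched accessions tested, 4284 passed, or 18.5%. Of these 1932 rose (8.32%) and 2352 fell (10.1%). The 2 basal and 2 LPS levels overlapped for 0 of them, but 17592 of all 23212 genes tested also had no overlap. Among 15158 protein-coding genes 1434 rose and 2010 fell, the background for the list counts below. Across genes, levels correlated at r = 0.997 between the basal arrays, at 0.995 between the LPS arrays and at 0.938 to 0.944 between conditions. Genes are not independent replicates. The median SD of a gene was 0.078 in basal and 0.101 in LPS arrays (log2, n = 2 each), and the median change of all genes was -0.012.

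The rises went further than the falls. Changes of at least 8-fold were 310 up and 97 down, those of at least 16-fold were 139 up and 14 down, and those of at least 64-fold were 31 up and 0 down. How levels were set across arrays moved the balance of rises and falls. Rises were 45.1% of the calls here, 37.7% after scaling to the median, 58.5% after scaling to the 75th percentile, which raised the median of all genes to 0.35, and 56.3% with the scanner's processed signals (median 0.27).

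**Figure D1:**
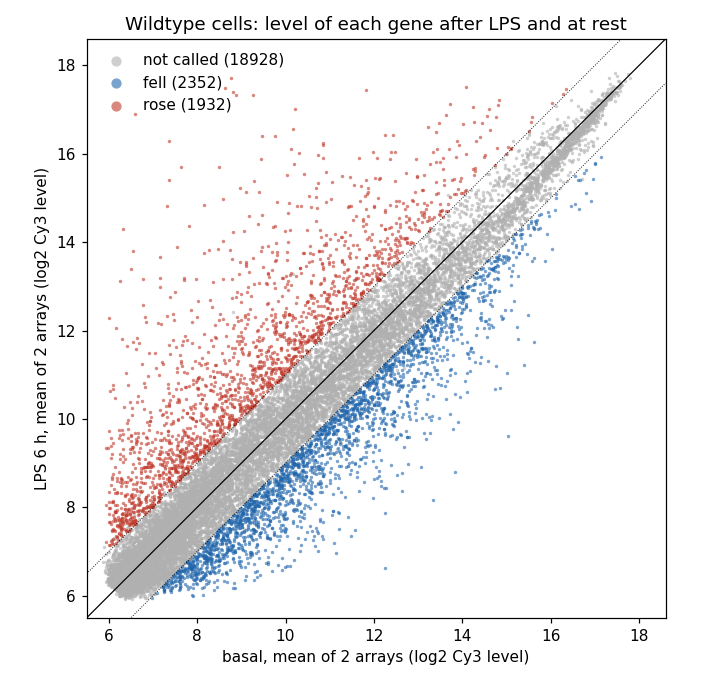
Mean log2 Cy3 level of each of 23212 genes in the 2 LPS arrays (y axis) against the 2 basal arrays (x axis), with the line of no change and dotted lines at 2-fold. The 1932 genes that rose reach farther from the diagonal than the 2352 that fell. The part of the floor of the signal in this was not tested.

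The cell type label was checked against marker genes. All 14 macrophage markers measured were above background on all 4 arrays (Cd68 was not matched on the array). Their summed linear level was 645047 and 676082 in basal and 478040 and 492387 in LPS arrays. Of 14 tested, Cd14 and Mertk rose, and Csf1r and Lyz2 were among 3 that fell, Lyz2 not without basal replicate 1 or LPS replicate 1. Markers of other cells were present as well. Dendritic cell markers summed to 243729 and 245001 before and 395268 and 399506 after LPS, with 4 of 14 up and 2 down. Neutrophil granule markers summed to 185272 and 232325 before and 334600 and 373749 after LPS. Of these, 7 of 14 rose and 0 fell (2 lower at an unadjusted p under 0.05 in limma), led by Lcn2 (4.19), Camp (2.39) and Ngp (2.06). The mast cell, basophil and eosinophil sum was 34271 to 39676 before and 30818 to 36766 after LPS, and Epx, Cpa3, Prg2 and Prg3 rose, Prg2 not without basal replicate 1. B cell sums lay between 1588 and 1779 on all arrays. Stromal and endothelial sums were 17757 and 18782 before and 13225 and 16478 after LPS. In RNA of a mixed culture, fewer cells of a type and less RNA per cell cannot be told apart. The part of these markers in the results below was not tested.

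**Figure D2:**
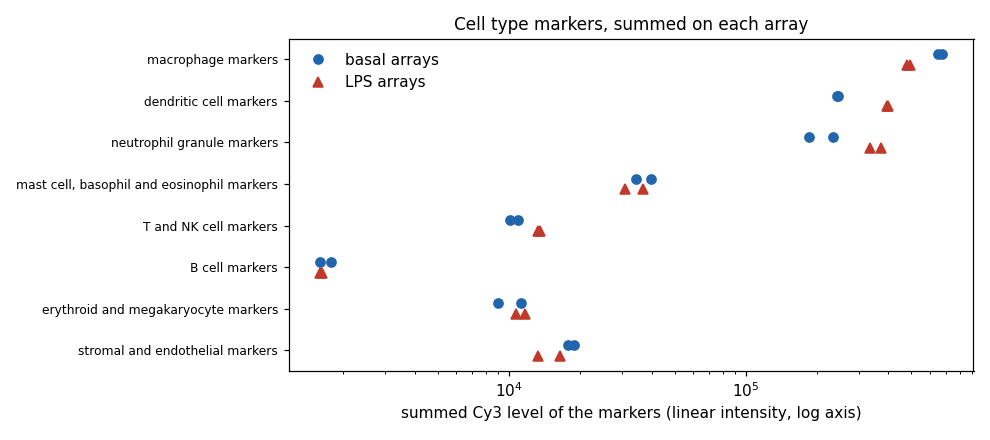
Summed linear Cy3 level of the markers of each cell type on the 2 basal arrays (circles) and the 2 LPS arrays (triangles), on a log axis. Neutrophil granule and dendritic cell sums are higher and macrophage sums lower on both LPS arrays, with no overlap between conditions. Each sum rests mostly on the brightest genes of its list, and the rise of the dendritic cell sum is mostly that of Ccr7.

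The largest rise was that of Il6, a cytokine of fever and the acute phase. Its levels were 6.49 and 6.71 at rest and 17.07 and 16.75 after LPS, a change of 10.31 ± 0.15 (log2, SE, n = 2 per condition, limma adjusted p = 0.000178). Cxcl10, a chemokine for activated T cells, had basal levels of 8.76 and 8.51 and LPS levels of 17.39 and 17.60. Ifit1, which binds viral RNA lacking host cap marks, went from 7.83 and 7.42 to 15.90 and 15.52. Nfkbia encodes the inhibitor that holds NF-kappaB in the cytoplasm and is itself an NF-kappaB target, and it went from 14.27 and 14.61 to 16.83 and 16.58, a rise of 2.26 ± 0.16. In each of these genes both LPS arrays lay above both basal arrays, but 17592 of all 23212 genes tested also had no overlap.

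The promoters of these 4 genes are shown as examples. They were picked by name and each holds a motif match, so they do not stand for the genes that rose. The shares over all genes are given below. The RefSeq promoter table (GRCm38.p6) gives 250 bases before to 50 bases after each start, and 12147 tested protein-coding genes matched it. Motifs were searched on both strands. The kB motif was spelled GGGANNTTCC, and the interferon response motif GAAANNGAAA. These spellings cannot cover the same bases exactly, but matches of one motif may overlap each other. The 250 bases before the start of 4 genes follow, 5′ to 3′ on the gene's strand, with motif matches in capitals. Cxcl10 lies at chr5:92348890-92349139 (minus strand), Ifit1 at chr19:34640639-34640888 (plus), Il6 at chr5:30012864-30013113 (plus) and Nfkbia at chr12:55492648-55492897 (minus).
Cxcl10: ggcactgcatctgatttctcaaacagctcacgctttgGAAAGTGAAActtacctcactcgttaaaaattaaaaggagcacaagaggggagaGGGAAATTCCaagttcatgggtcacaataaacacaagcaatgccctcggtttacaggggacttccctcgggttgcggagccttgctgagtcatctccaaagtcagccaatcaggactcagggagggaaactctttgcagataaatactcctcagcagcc
Ifit1: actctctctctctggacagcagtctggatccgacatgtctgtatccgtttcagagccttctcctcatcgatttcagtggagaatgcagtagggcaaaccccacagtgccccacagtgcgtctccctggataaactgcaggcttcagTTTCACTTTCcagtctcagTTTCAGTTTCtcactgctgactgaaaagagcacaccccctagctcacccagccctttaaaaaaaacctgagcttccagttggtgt
Il6: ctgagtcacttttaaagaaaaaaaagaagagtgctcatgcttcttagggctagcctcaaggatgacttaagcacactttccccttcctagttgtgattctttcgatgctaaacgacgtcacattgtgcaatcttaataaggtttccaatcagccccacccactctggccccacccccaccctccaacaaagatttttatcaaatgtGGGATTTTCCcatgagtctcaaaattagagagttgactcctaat
Nfkbia: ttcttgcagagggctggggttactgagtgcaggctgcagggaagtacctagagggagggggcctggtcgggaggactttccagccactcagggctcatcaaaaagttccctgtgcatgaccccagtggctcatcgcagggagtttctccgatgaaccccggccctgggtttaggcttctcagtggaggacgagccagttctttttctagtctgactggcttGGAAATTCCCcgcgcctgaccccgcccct

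The Cxcl10 sequence holds the interferon response motif from base 213 before the start and the kB motif from base 159. Ifit1 holds 2 interferon response matches, from bases 104 and 85. The kB match of Il6 begins 44 bases and that of Nfkbia 29 bases before the start. Over all 32851 promoter windows of the table, 1.47% held the kB motif, 3.44% the interferon response motif and 0.067% both.

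Among 183 matched genes that rose at least 8-fold, 43 held the interferon response motif in a window, or 23.5% (exact binomial 95% interval 17.6 to 30.3%, counting error only). The share was 7.20% of 944 genes that rose 2 to 8-fold, 3.57% of 9373 genes that were not called and 2.65% of 1584 genes that fell 2 to 8-fold. The kB motif was in 14 of the 183 strongest rises, or 7.65% (4.25 to 12.5%), and in 1.70% of the genes that rose 2 to 8-fold, the same as in genes not called (1.70%). Of the 183, 4 held both motifs (2.19%, against 0.107% of all 12147 genes). CCAAT, a common promoter box, was in 33.9% of the strongest rises and in 42.5% of all genes. A match is a run of letters and does not show that a factor binds there. A gene can have several windows, on average 1.28 for the strongest rises and 1.25 for all genes.

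**Figure D3:**
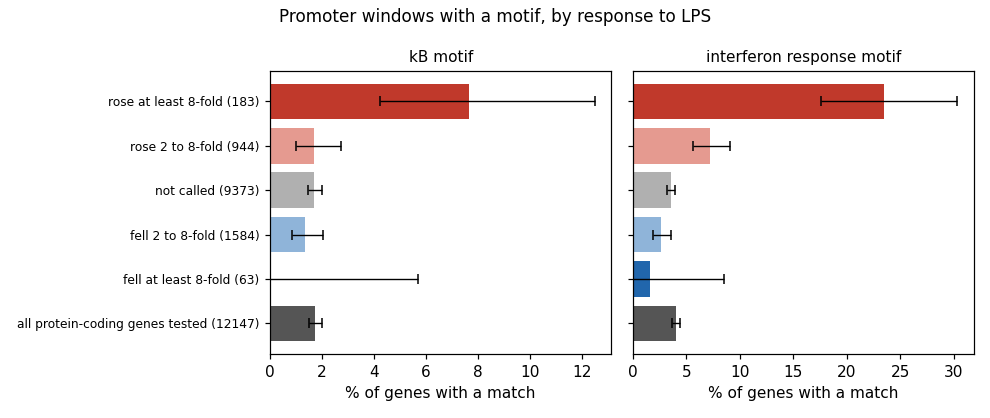
Share of protein-coding genes with a kB motif (left) or an interferon response motif (right) in a promoter window, by response to LPS, with the number of genes in brackets. Bars start at 0, and error bars are exact binomial 95% intervals. The interferon response share steps from 23.5% to 7.20% to 3.57% from strong rises to genes not called. The kB share is 7.65% in the strongest rises and 1.70% both in genes that rose 2 to 8-fold and in genes not called. It is 1.33% in genes that fell 2 to 8-fold and 0% in those that fell at least 8-fold.

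Receptor components moved apart. Tlr4 fell from 10.51 and 10.31 to 8.55 and 9.05 (-1.61 ± 0.20, limma adjusted p = 0.00416). Cd14, which hands LPS to the receptor, rose from 12.97 and 12.90 to 15.33 and 14.93 (2.19 ± 0.16). The co-receptor gene Ly96 rose by 1.47, and Ly86, which encodes MD-1, the partner of the TLR4 relative CD180, fell by 1.51. Of 26 genes of the receptor complex and its proximal signalling, 11 rose and 4 fell (median 0.72). Largest were the rises of the kinase gene Ikbke (3.36 ± 0.12), of Peli1, a ubiquitin ligase of the IRAK and TRIF branches (3.27 ± 0.26), and of Map3k8, the kinase TPL2 upstream of ERK (2.61 ± 0.21). Besides Tlr4 and Ly86, Tab1 (-1.59), a TAK1 subunit, and Irak1 (-1.17), the MyD88 branch kinase, fell.

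Other microbial sensors rose in 16 of 22 cases. Ifih1, the RNA sensor MDA5, rose by 5.05 (3.30 by its other probe). Clec4e, the glycolipid receptor Mincle, went from 10.62 and 10.77 to 15.30 and 15.14, and Dhx58, the RIG-I relative LGP2, rose by 4.36. The 2 that fell were Tlr13 (-1.15), a sensor of bacterial ribosomal RNA, and Sting1 (-1.15), the adaptor of the DNA sensor cGAS. Without basal replicate 1 the call of Tlr13 was lost, and without basal replicate 2 that of Sting1. After scaling to the 75th percentile, and with processed signals, 0 sensors fell.

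Among NF-kappaB subunits and their inhibitors 17 of 22 rose and 0 fell (3 lower at an unadjusted p under 0.05 in limma). Tnfaip3, the ubiquitin-editing inhibitor A20, went from 10.57 and 10.50 to 15.19 and 14.89. Traf1 rose by 4.05 ± 0.10, and Nfkbiz, a nuclear cofactor needed for Il6, by 4.01 ± 0.34. The immediate early and AP-1 list was split at this time, with 6 of 28 up and 7 down (10 up after scaling to the 75th percentile). Batf2 (2.98), the nuclear receptor gene Nr4a3 (2.96) and Batf (2.87) rose. Egr2 fell from 13.90 and 14.30 to 10.31 and 10.93, and Myc (-2.12) and Egr1 (-1.74) fell as well, so that both early growth response factors were below their resting level at 6 h.

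Feedback on MAP kinases ran both ways within a family. Dusp2, a nuclear phosphatase, rose from 9.60 and 9.14 to 14.51 and 14.31 (5.04 ± 0.19), while Dusp3 fell from 13.47 and 13.19 to 10.79 and 10.26 (-2.80 ± 0.21, -1.76 by its other probe). Dusp1, the phosphatase best known for restraining p38 in macrophages, rose by 1.65 ± 0.15. In the family of GADD45 stress sensors Gadd45b rose by 3.51 and Gadd45g fell by 2.58. Of 19 genes of this list 8 rose and 4 fell. For the STAT and SOCS list 7 of 18 rose and 1 fell. Socs1, which blocks JAK kinases, rose by 3.07, Stat5a by 2.92 and Socs3 by 2.51 ± 0.40, from basal levels of 12.68 and 13.84. Socs6 was the member that fell (-1.20).

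RNA decay factors are feedback too, as many cytokine messages carry sites for them. Of 15 measured, 3 rose and 1 fell, and the fall was the largest change. Zfp36l2, which binds AU-rich elements, went from 15.49 and 15.29 to 11.14 and 11.28, an 18.1-fold fall (limma adjusted p = 0.000265). Its relative Zfp36 (tristetraprolin) rose by 1.25 ± 0.21 with an adjusted p of 0.0101 in limma, and this call was lost without basal replicate 2. Zc3h12a, the RNase Regnase-1, rose by 2.56 ± 0.21. Arid5a, which shields Il6 RNA from that RNase, rose by 2.74 ± 0.11, from 11.67 and 11.81 to 14.43 and 14.55.

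**Figure D4:**
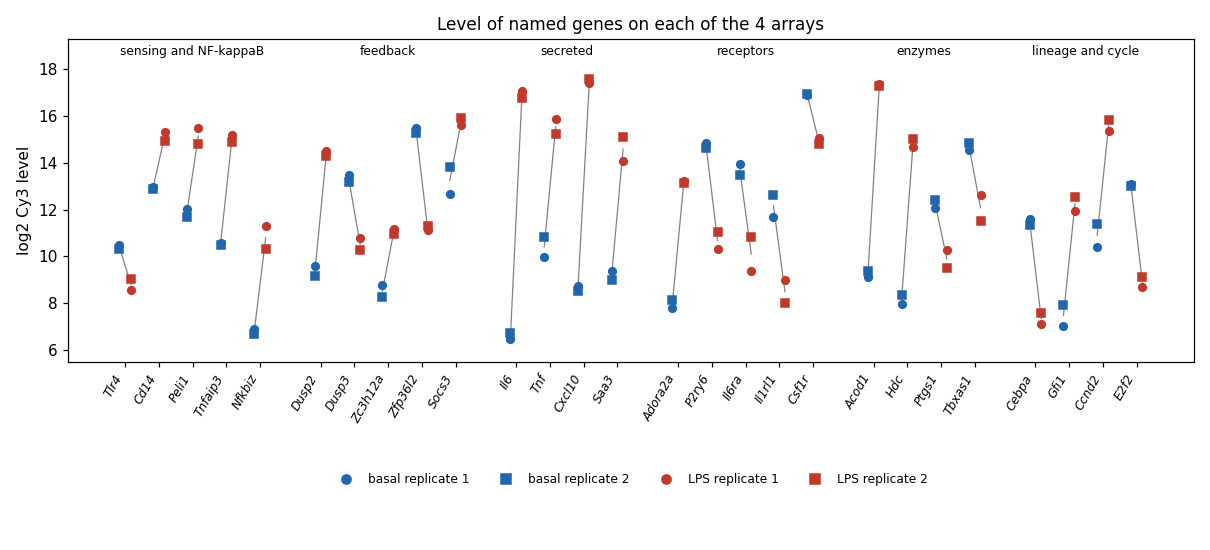
Log2 Cy3 level of 27 genes on each of the 4 arrays, basal in blue and LPS in red, circles for replicate 1 and squares for replicate 2, with lines between condition means. The relatives Dusp2 and Dusp3 move in opposite directions, as do the RNA decay factors Zc3h12a and Zfp36l2.

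Interferon beta itself was not above background at rest. Ifnb1 had LPS levels of 11.64 and 9.64, at least 23.1-fold above the lowest measurable signal of the basal arrays, and its 2 LPS arrays lay 2 log2 units apart. An "at least" fold sets the mean of the measured condition against the lowest signal that counted as above background, or the probe's own signal where that was higher. Irf7, the factor that amplifies interferon production, rose from 7.36 and 6.98 to 12.57 and 13.40, and Usp18, which closes the interferon receptor, rose by 5.70 ± 0.16. Across the signalling list 9 of 19 rose and 1 fell. The fall was that of Ifngr1, a chain of the interferon gamma receptor, from 13.22 and 12.73 to 10.25 and 10.56.

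Of 35 antiviral effectors 32 rose (median 3.58). Rsad2 (viperin) had the largest rise, 8.94 ± 0.28, from 9.16 and 8.38 to 17.63 and 17.80. Cmpk2, its genomic neighbour and a nucleotide kinase, rose by 8.05 (6.83 by its other probe). Oasl1 rose by 8.44 ± 0.29. Interferon-induced GTPases, which attack the vacuoles of intracellular microbes, rose in 14 of 16 cases and fell in 0 (also 0 lower at an unadjusted p under 0.05 in limma). Gbp5 went from 10.31 and 9.94 to 16.08 and 16.15. Tgtp2 rose by 6.44 but by 1.68 by its other probe, and as it has a near-identical copy its value is uncertain.

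Secreted factors rose in most cases: 24 of 38 cytokines and growth factors (3 fell), 10 of 13 CC chemokines and 8 of 12 CXC and CX3C chemokines, with 0 falls in both chemokine lists, also at an unadjusted p under 0.05 in limma. Il1b went from 8.50 and 9.13 to 17.34 and 17.45, and Il1a rose by 6.89 ± 0.21. Tnf rose from 9.97 and 10.85 to 15.86 and 15.21 (5.12 ± 0.37). Il10, which restrains macrophages, was not above background at rest and reached 7.84 and 8.81, at least 4.40-fold. Without basal replicate 2 its adjusted p was 0.0513 in limma. The T cell attractant Il16 (-1.64), Tnfsf14 (-1.40) and Pdgfb (-1.17, or -0.24 by its other probe) fell, the last not when either basal array or LPS replicate 2 was left out.

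Among chemokines, Ccl22, often taken as a marker of alternative activation, went from 9.85 and 9.09 to 14.47 and 14.74. Ccl1 rose by 5.24 ± 0.80, with LPS arrays at 12.87 and 10.44, and Ccl12 by 3.74 ± 0.41. Cxcl1, which draws neutrophils, was not above background at rest and rose at least 59.1-fold. Cxcl9 rose by 6.86, and by 4.85 by its other probe. Other genes silent on both basal arrays were Nts (neurotensin), at least 23.6-fold up, Tslp, at least 20.3-fold, and Il1f6 of the interleukin 1 family, at least 12.3-fold. In total 600 genes were below background on both basal arrays only, and 381 on both LPS arrays only. The largest bounds on a fall were 6.25-fold for Snph, 4.20-fold for Cand2 and 3.57-fold for Rpp25.

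Iron and acute phase genes moved both ways. Saa3, a serum amyloid, went from 9.36 and 9.01 to 14.06 and 15.12. Hamp, which encodes the iron hormone hepcidin, rose at least 25.0-fold from below background, and Lcn2, which traps bacterial iron carriers, rose by 4.19 ± 0.31. Lcn2 is also a neutrophil granule gene, and that list's summed level, which includes Lcn2, was higher on both LPS arrays. The heme transporter gene Slc48a1 fell by 2.52, the transferrin receptor gene Tfrc by 2.47 (-2.24 and -0.82 by its other probes, call lost without either basal array) and Gclc, for glutathione synthesis, by 1.52. Over the list of oxidant defence, heme and iron genes 6 of 31 rose and 4 fell. Of 15158 protein-coding genes tested, 1434 rose and 2010 fell.

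Receptors for cytokines fell more often than they rose. Of 31, 9 fell and 5 rose (median -0.33). Il6ra went from 13.96 and 13.47 to 9.37 and 10.85, a fall of 12.2-fold beside the rise of its ligand Il6. Il1rl1, the interleukin 33 receptor, fell by 3.67 ± 0.46 (-1.82 and -1.23 by its other probes), and Tgfbr1 by 2.96 ± 0.24 (-2.0 by its other probe). Csf1r, the receptor for the macrophage growth factor CSF1, fell from 16.92 and 16.93 to 15.06 and 14.82, a change of -1.98 (-1.86 and -1.20 by its other probes). Il2ra (2.23) and Il2rg (1.84), chains of the interleukin 2 receptor, rose.

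Seven-helix receptors for chemokines, purines and lipids were divided, 9 of 40 up and 12 down. Adora2a, an adenosine receptor that raises cyclic AMP, rose from 7.81 and 8.16 to 13.23 and 13.12 (36.7-fold). Adora3, which couples to lower cyclic AMP, fell from 11.96 and 12.13 to 8.62 and 9.20. P2ry6, the UDP receptor, fell by 4.06 ± 0.27. Ccrl2, a chemerin-binding receptor, rose by 4.65 ± 0.13, and Fpr2, which senses formyl peptides, by 4.63 ± 0.20. Vipr1, a receptor for vasoactive intestinal peptide, had the largest fall of all genes with measured levels, from 12.26 and 12.26 to 6.84 and 6.41, though its other probe gave -1.69. Next came Rab3il1, a Rab exchange factor (-5.41 ± 0.15), the orphan receptor gene Gpr146 (-5.17 ± 0.31) and the metalloprotease gene Amz1 (-5.05 ± 0.39).

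Among 35 effector enzymes 12 rose and 7 fell. Acod1, which makes itaconate, went from 9.12 and 9.40 to 17.38 and 17.27. Ptgs2, the inducible cyclooxygenase, rose from 6.33 and 6.31 to 14.30 and 14.30, while the constitutive Ptgs1 fell from 12.06 and 12.42 to 10.28 and 9.52. Hdc, which makes histamine, rose from 7.98 and 8.35 to 14.67 and 15.01 (102-fold, limma adjusted p = 0.000265). Mast cells and basophils are the cells best known for Hdc. In the list of mast cell, basophil and eosinophil markers 4 of 14 rose and 0 fell (3 lower at an unadjusted p under 0.05 in limma), among them Cpa3 (1.43), while the summed level overlapped between conditions. Their part in the rise of Hdc was not tested. Nos2, the inducible nitric oxide synthase, rose by 5.42 ± 0.27. Tbxas1, thromboxane synthase, fell by 2.62, and Lta4h, which makes leukotriene B4, by 2.29. The first call was lost without basal replicate 2 and the second without either basal array.

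Inflammasome and caspase genes rose in 10 of 20 cases and fell in 2. Ifi209 rose by 6.03 (4.73 and 5.20 by its other probes), the caspase 8 decoy gene Cflar by 4.14 (3.87 and 3.50 by its other probes) and the pyrin gene Mefv by 3.66 (2.06 by its other probe). Nlrp1b fell by 2.08 (-0.76 by its other probe) and Casp9, of the mitochondrial death pathway, fell as well (-1.88), a call lost without either basal array. In the survival list 7 of 20 rose and 1 fell. Without basal replicate 1, 4 rose. The death receptor gene Fas rose 8.02-fold, the inhibitor gene Birc2 by 2.74 (log2) and the pro-death gene Bcl2l11 (BIM) by 2.66, while Bcl2 fell from 10.26 and 10.59 to 7.93 and 8.03.

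Surface molecules for T cells rose in 11 of 19 cases. Cd69 went from 7.55 and 8.06 to 14.41 and 14.34, and Cd40, the receptor for T cell help, from 10.21 and 10.14 to 16.52 and 16.62. Cd200 rose by 5.45 ± 0.27 while the gene of its receptor on macrophages, Cd200r1, fell from 12.95 and 12.56 to 10.52 and 10.57. Vsir also fell (-1.65), not with the replicate block and not without basal replicate 1 or LPS replicate 1. Lck, a T cell kinase, rose by 3.54 ± 0.10. It was 1 of 2 T and NK cell markers of 14 that rose, the other being Cd8a (1.23, or 0.39 by its other probe, not without either basal array or LPS replicate 2). These markers, Lck included, summed to 10068 and 10907 before and 13298 and 13580 after LPS, and the median change of the list was 0.11.

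Adhesion genes rose in 10 of 22 cases and fell in 4, with the rises led by Vcam1 (3.30, or 2.03 by its other probe), Icam1 (3.23) and Itga4 (3.08). The largest falls were those of the integrin genes Itgb7 (-2.18, call lost without either basal array), Itgb5 (-2.15) and Itga6 (-1.92). With processed signals, or without basal replicate 2, 2 fell. Peptide loading for MHC class I rose in 6 of 19 genes and fell in 0 (also 0 lower at an unadjusted p under 0.05 in limma). The peptide transporter gene Tap1 went from 8.40 and 8.51 to 11.13 and 11.01, Tapbpl rose by 2.57 and Tapbp by 1.69. Scaling to the 75th percentile or processed signals called 14 of the 19. In the class II list 0 of 15 rose (1 higher at an unadjusted p under 0.05) and 3 fell in limma. These were H2-DMa, the peptide exchanger (-1.55), the lysosomal reductase gene Ifi30 (-1.37) and Marchf1 (-1.08, or -0.07 by its other probe), the last not without either basal array or LPS replicate 1. With processed signals 1 of the 15 fell. After scaling to the 75th percentile 0 of them passed.

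Uptake receptors were rearranged. Of 22 Fc receptor and complement genes 7 rose and 5 fell. Complement factor B, Cfb, went from 10.38 and 10.15 to 14.32 and 15.31, the C1 inhibitor gene Serping1 rose by 2.81 and Fcgr4 by 2.20. Fcgr3 fell from 13.87 and 13.91 to 11.93 and 11.69, and the inhibitory Fcgr2b by 2.06, not without basal replicate 2. Without basal replicate 2, 4 rose and 1 fell in this list, and 2 fell without basal replicate 1 and 8 without LPS replicate 1. Among 21 scavenger and apoptotic cell receptors 3 rose and 5 fell (3 without basal replicate 2). Marco rose by 3.09 ± 0.29, Olr1 by 2.39 and Mertk by 1.32 ± 0.17. Clec10a, a galactose lectin, had LPS levels of 12.31 and 10.49 after basal levels of 14.30 and 14.56 (-3.03 ± 0.61), and its call was lost without either basal array. The mannose receptor gene Mrc1 fell by 1.95, not without basal replicate 2.

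Genes of alternative activation did not move as a block. Of 23, 3 rose and 7 fell (4 fell without basal replicate 2). Ccl22, Ccl24 (1.54, not without either basal array) and Tgm2 (1.22) rose. Egr2, the lipid-sensing receptor gene Pparg and Clec10a had the largest falls, and Arg1 had a change of -0.08.

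Lipid genes fell more than they rose. In the cholesterol list 11 of 34 fell and 3 rose. Nceh1, which frees stored cholesterol, fell by 2.74, and Soat1, which stores it, by 2.60 (not without either LPS array). Mylip, which degrades the LDL receptor (1.40, or 0.73 by its other probe, not without basal replicate 2 or LPS replicate 2), Pmvk (1.31) and Idi1 (1.23), of the mevalonate pathway, rose. Among 28 fatty acid and PPAR genes 8 fell and 2 rose. Scd2, a desaturase, went from 15.16 and 15.37 to 12.01 and 11.59, and Pparg from 12.29 and 11.92 to 9.14 and 8.53. Acsl1, which activates fatty acids, rose by 2.90 (3.87 by its other probe), while its relative Acsl3 fell by 2.70.

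Glycolysis did not move in 1 direction. Of 28 genes 5 rose and 6 fell, and after scaling to the 75th percentile 2 fell. Slc2a6, a sugar transporter, rose from 13.61 and 13.67 to 16.91 and 16.84. Pfkp (1.75, 0.49 by its other probe) and Pfkfb3 (1.71), around the phosphofructokinase step, rose, and the isoform gene Pfkfb4 fell by 1.47. Pdk1 (-1.30) and Tpi1 (-1.23, not without basal replicate 2) fell. In the citric acid and pentose phosphate list 0 of 30 rose and 5 fell in limma. At an unadjusted p under 0.05 in limma, 2 were higher and 25 lower. The falls were led by Fh1, fumarase (-1.87, not without basal replicate 2). Without basal replicate 2 or after scaling to the 75th percentile, 3 fell. Of 15158 protein-coding genes tested 2010 fell. For the respiratory chain 0 of 52 rose and 1 fell in limma, Ndufs7 (-1.43). There, 1 was higher and 32 lower at an unadjusted p under 0.05 in limma. By limma's adjusted p alone, 21 of the 30 and 27 of the 52 were lower, against 5550 of all 23212 genes tested. Such small changes depend on the scaling, as the 75th percentile moved the median of all genes from -0.012 to 0.35. The median of the respiratory chain list was -0.41.

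Lysosomal genes fell in 16 of 40 cases and rose in 1. Manba, a mannosidase, fell from 12.28 and 12.25 to 9.94 and 9.33, and Ctns, the cystine exporter, by 2.27. Of the factors that drive lysosomal genes, Tfeb fell from 9.96 and 9.84 to 7.39 and 7.83, and its relative Mitf was the member that rose (1.32). The number of falls was 10 without basal replicate 1, and 7 after scaling to the 75th percentile or with processed signals.

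The cell cycle lists fell, with exceptions of known function. For DNA replication and entry into S phase 24 of 35 fell and 4 rose (median -1.39). E2f2 went from 13.08 and 13.03 to 8.68 and 9.13. Ccnd2 rose from 10.42 and 11.40 to 15.38 and 15.82 (4.69 ± 0.36), while Ccnd1, another cyclin D gene, fell by 2.23. The inhibitors Rbl1 (2.36, 1.02 by its other probe) and Cdkn1a (2.09) rose. For mitosis 20 of 30 fell and 2 rose (median -1.45). Cdc25b fell by 2.78 and Cdc20 by 2.48. Pttg1, securin, rose from 12.47 and 12.49 to 15.18 and 15.60, and its other probe gave 2.66. Tpx2 rose by 1.12, not without basal replicate 1 or LPS replicate 2, and its other probe gave 0.13.

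Lineage factors of myeloid cells moved both ways, with 5 of 28 up and 8 down. Cebpa, which sets up the granulocyte and monocyte lineage, went from 11.59 and 11.36 to 7.12 and 7.57 (-4.13 ± 0.19, limma adjusted p = 0.000508). The retinoic acid receptor gene Rara fell by 3.28 (-2.24 by its other probe). Gfi1, a repressor best known in neutrophils, rose from 7.04 and 7.92 to 11.95 and 12.53, and the neutrophil granule sums were higher on the same arrays. Ikzf1 rose by 2.62 (1.59 by its other probe). Zbtb46, a dendritic cell factor, rose by 5.38, but its other probe gave 1.06. The dendritic cell genes Fscn1 (4.58) and Ccr7 (3.41 ± 0.10) rose, and Cd209a (-2.27, or -1.61 by its other probe) and Kmo (-1.84) fell, the former not without either basal array.

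Matrix and plasminogen genes rose in 12 of 28 cases and fell in 4. Serpinb2, an inhibitor of plasminogen activators, rose by 4.29 ± 0.56, with LPS arrays at 12.44 and 10.89, and one of its targets, Plau, fell by 2.59. Mmp25 rose by 4.19 ± 0.10 and the proteoglycan gene Vcan by 3.96 (2.22 and 2.93 by its other probes). Timp2 fell by 2.77 (-0.69 by its other probe). In the list of protein stress 2 of 25 rose and 4 fell, against 1434 and 2010 of 15158 protein-coding genes tested. Ppp1r15a, which ends the translation block, rose by 2.18, and Eif2ak3, the kinase PERK that starts it, fell by 1.63.

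Genes often taken as constant gave mixed values. Of 47 cytosolic ribosomal protein genes 0 rose and 0 fell (0 higher and 9 lower at an unadjusted p under 0.05 in limma), with changes from -0.52 to 0.16. In a list of 14 common reference genes 3 fell, Tfrc, Gusb (-1.75) and Tubb5 (-1.04). Without basal replicate 2 the number was 1.

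**Figure D5:**
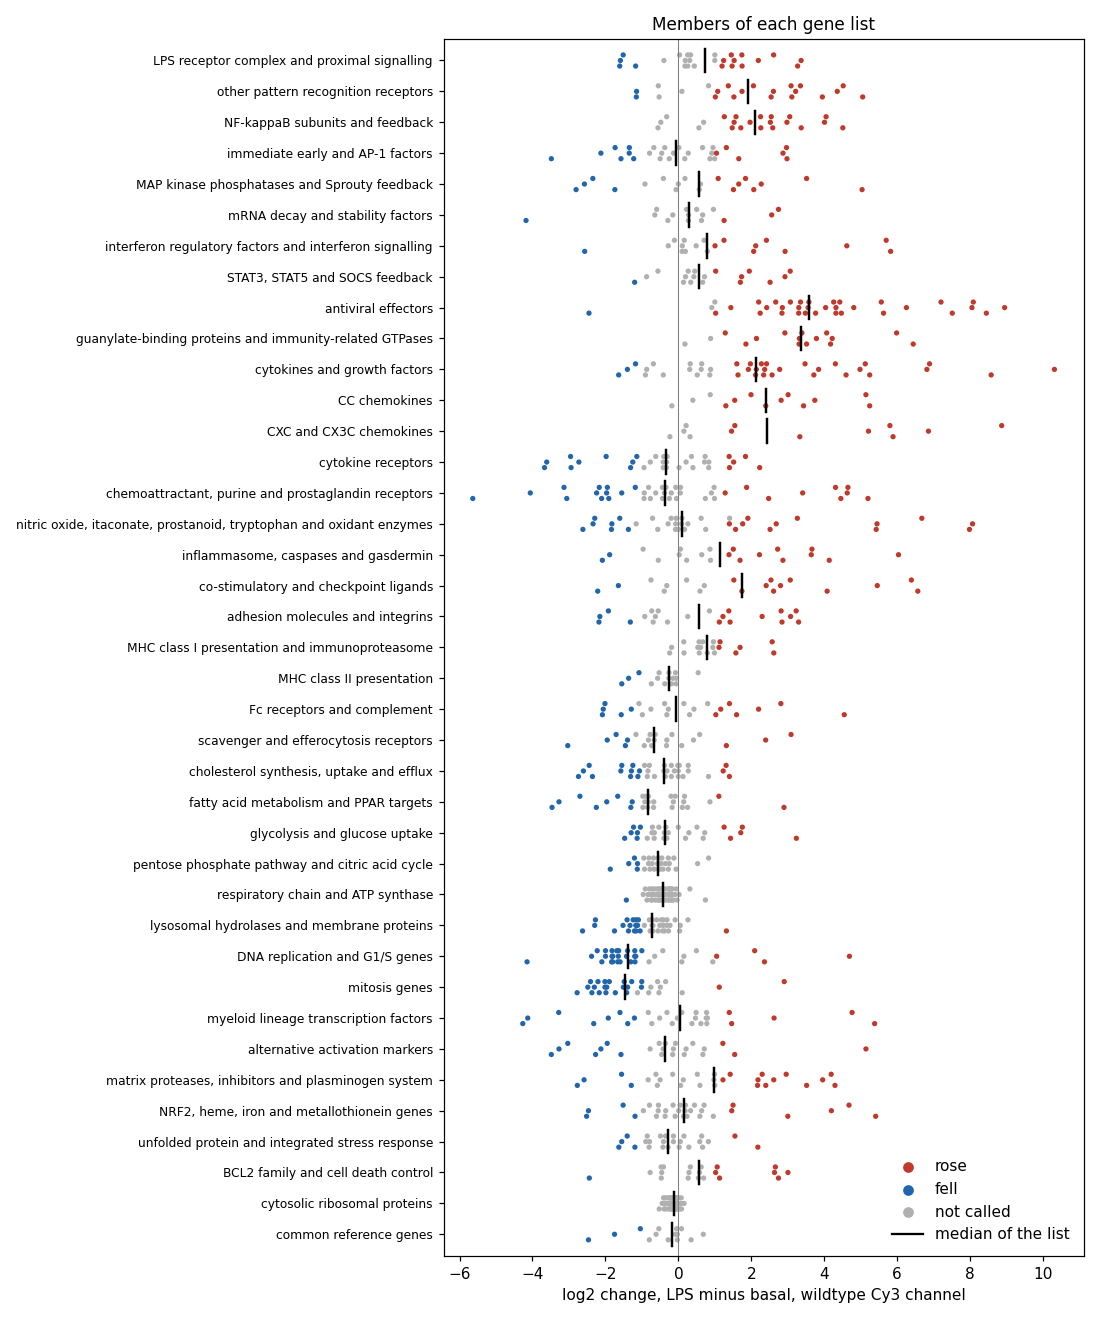
Log2 change (LPS minus basal) of every tested member of 39 gene lists, 1 point per gene, coloured by call, with a bar at the median of the list. Antiviral and GTPase members lie to the right, cell cycle members mostly to the left, and receptor, enzyme and lineage lists spread both ways around a median near 0.

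Beyond proteins, 62 of 495 long noncoding RNAs tested passed (12.5%, against 22.7% of 15158 protein-coding genes), with 31 up and 31 down. Some stand beside members described above and were chosen after their values were seen. Morrbid, which lies near Bcl2l11 and is known to restrain it, rose by 2.49 ± 0.13, and Bcl2l11 rose by 2.66 ± 0.29. Pvt1, the neighbour of Myc, fell by 2.64 ± 0.31, and Myc fell by 2.12 ± 0.24. The largest changes of the class were a rise of 3.21 in AW011738 and a fall of 3.79 in AU022793.

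Genes that rose often lay beside each other. In the order of the RefSeq gene table, the next tested gene rose for 22.4% of 1430 genes that rose, against 9.46% of all 15137 neighbouring pairs. For falls the shares were 19.1% and 13.3%. Runs of adjacent genes that each rose at least 4-fold were made up mostly of gene families. The longest held 8 Ifi2 family genes on chromosome 1 (2.09 to 6.64), followed by 5 Slfn genes on chromosome 11 (2.09 to 5.18) and 5 genes from Trim34b to Trim30d on chromosome 7 (2.02 to 3.83). Ifit2, Ifit3, Ifit1bl1 and Ifit3b made a run on chromosome 19 (6.40 to 7.51), and Cxcl3, Cxcl1 and Cxcl2 one on chromosome 5 (5.21 to 5.88). Such families have near-identical copies, so a probe can read its neighbour and their values are uncertain as single genes. A run without such copies was Parp14, Dtx3l and Parp9 on chromosome 16 (2.85 to 3.56). The median gene span was 16.96 kb for 241 genes up at least 8-fold and 26.2 kb for 1193 genes up 2 to 8-fold. It was 19.6 kb for 11714 genes not called and 20.3 kb for all 15158 protein-coding genes tested. The ranges between quartiles overlapped, at 7.02 to 31.9 kb for the strongest rises and 7.68 to 48.0 kb for genes not called.

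Cdk5r1, the gene deleted in the other channel, also rose in these wildtype cells, from 9.58 and 9.78 to 11.36 and 11.93 (1.97 ± 0.21, limma adjusted p = 0.00304, 1.77 by its other probe). In the knockout channel its signal was also above background on all 4 arrays, with log2 ratios to wildtype of -0.37 and -0.59 at rest and -2.55 and -2.29 after LPS, so the channel labelled knockout differs little in this signal at rest. Its partner kinase gene Cdk5 had levels of 10.24 and 9.98 before and 9.04 and 9.44 after LPS, a change of -0.87 ± 0.18 that is under 2-fold. Whether the LPS response differs between genotypes was tested on the log2 ratio of knockout to wildtype, as LPS arrays minus basal arrays. In limma 56 of 23212 genes passed an adjusted p of 0.05 (0.241%). The count was 0 with processed signals (2395 at an unadjusted p under 0.05), and 1 to 147 with an array left out, with 147 without basal replicate 1, 3 without LPS replicate 1 and 1 without LPS replicate 2. With the replicate number as a block it was 24. Changes in wildtype and knockout cells were 10.31 and 10.02 for Il6, -4.13 and -3.93 for Cebpa, and 5.04 and 5.30 for Dusp2, and these 3 differences did not pass. Both genotypes were read on the same arrays.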

How the data were processed

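RNA of wildtype cells (Cy3) and knockout cells (Cy5) was hybridised to 4 arrays, with no dye swap, on 1 slide in 1 scan. Per the file headers, the deposited intensity of each spot (median foreground, local background and processed signal) was made with Agilent Feature Extraction 11.5.1.1, while the submitters' processing notes name 9.3.2.1. A value table by the authors gives log2 ratios (knockout over wildtype), which equal the ratio of processed signals up to a constant per array, within 0.001 for 100% of the probes compared. Column medians run from 0.016 to 0.034, so columns are nearly centred on 0, and the origin of the constant is unknown. The table served only as an alternative.

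Background was corrected with normexp (offset 50), ratios by loess within arrays (weight 0 for controls and outliers) and levels across arrays by Aquantile, in limma 3.58.1 under R 4.3.3. Loess and Aquantile use both channels, so the Cy3 level also rests on Cy5. Each array held 43020 probe spots for 39429 probes, with 0 saturated and 207 to 255 outlier spots. Of the probe spots 68.3% to 71.0% were well above background in Cy3. Median Cy3 foregrounds were 76.0 to 97.5 over backgrounds of 25.0 to 27.0, and basal arrays were brighter. The number of arrays limits the precision.

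Probes with a well-measured Cy3 signal on at least 2 of the 4 arrays were kept, and the brightest kept probe stood for a gene. Accessions were matched without versions to RefSeq symbols (GRCm38.p6, the headers name mm9), which named 27508 probes and left 11921 with their accession. Il12b, Mx1, Mx2 and Cxcl11 were among listed genes without a match. Of 1023 called genes with another kept probe, 64 had one of opposite sign. Levels were fitted with lmFit and eBayes, two-sided, and SE are of that fit. The fit was tested on simulated data.

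The 47 gene lists (1110 genes, 1067 tested) and the named genes were chosen with earlier results of these data known. Named were the 12 largest rises and falls with signal on all 4 arrays, the 6 largest bounds each way, up to 3 called members per direction of each list with those opposite to it, and a set of known LPS genes. Some results are not reported here. Alternatives were other scalings, background corrections, filters, call rules, the replicate block, a shorter promoter window and leaving out each array.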

Additional observations from a re-analysis of the deposited data

Results flagged for a closer look

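For 5 named genes the LPS response passed as different between knockout and wildtype cells in a test of the difference itself (limma, log2 ratio of LPS arrays minus basal arrays, n = 2 per condition). Cdk5r1 itself rose by 1.97 in wildtype and changed by 0.027 in knockout cells, a difference of -1.94 ± 0.13 (adjusted p = 0.00697 in limma). At rest the log2 ratio of knockout to wildtype was only -0.37 and -0.59, with both channels above background on all 4 arrays, and after LPS it was -2.55 and -2.29. The signal of the deleted gene at rest therefore sets the genotypes little apart, and where its probe lies relative to the deleted part was not analysed here. Its adjusted p was 0.141 with processed signals, 0.073 without LPS replicate 1 and 0.112 without LPS replicate 2. Il10 and Il1f6 were not above background at rest in either channel, so their fitted differences of 1.90 and -1.18 (adjusted p = 0.00258 and 0.0321 in limma) rest on unmeasured basal ratios and do not measure a difference of responses. What was measured are their ratios on the LPS arrays, 1.90 and 1.91 for Il10 and -0.92 and -1.13 for Il1f6. Oasl1 differed by 1.05 ± 0.093 (adjusted p = 0.0185), with ratios of -0.72 and -0.71 at rest and 0.35 and 0.32 after LPS. Bcl2l11 differed by 0.83 ± 0.10 (adjusted p = 0.049), with ratios of -0.21 and -0.05 at rest and 0.68 and 0.73 after LPS. For Il10 the adjusted p in limma was 0.139 with processed signals, 0.0599 without LPS replicate 1 and 0.098 without LPS replicate 2. Il1f6, Oasl1 and Bcl2l11 missed the threshold in these same settings and with the replicate number as a block (adjusted p = 0.0617, 0.0529 and 0.0938 in limma), Il1f6 also without basal replicate 2 and Bcl2l11 without either basal array. The cause was not tested.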

How the results depend on the processing

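Of 217 results on single named genes, 0 changed direction under any alternative, and 30 genes lost the call when 1 array was left out. Rises numbered 3738 with processed signals, 4284 with the adjusted p alone and 885 with limma's test against a 2-fold change. Falls numbered 5550 with the adjusted p alone and 632 against a 2-fold change. Leaving out 1 array gave 1749 to 2005 rises and 2018 to 2437 falls. Median scaling gave 1679 rises and 2778 falls. With the replicate number as a block there were 1933 rises and 2343 falls, and among the named genes only Vsir lost its call, besides the genotype differences of Bcl2l11, Il1f6 and Oasl1. Over genes the deviations of same-numbered samples correlated at -0.19, and the crossed pairing, chosen after seeing the data, gave 1962 rises and 2396 falls. Genes whose response differed between genotypes numbered 154 with median centring, 24 with the replicate block, 1 to 147 with 1 array left out, and 0 with processed signals and with the authors' value table (2395 and 2397 at an unadjusted p under 0.05 in limma). The cause was not tested. With the shorter promoter window, 21.3% of the strongest rises held the interferon response motif and 6.01% the kB motif.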
